A study of Rattus norvegicus with 24 samples.

Results

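Transforming growth factor beta (TGF-beta) and SMAD genes were followed in blood mononuclear cells of healthy and arthritic rats. The 10 genes were chosen by name: the ligands Tgfb1 and Tgfb2, the receptors Tgfbr1 and Tgfbr2, the signal carriers Smad1, Smad2 and Smad3, the inhibitor Smad7, the transcription factor Zeb2 and the target gene Ccn2. A probe set, the group of short probes that reads one transcript on the array, was taken when the array annotation gave it 1 of these symbols and no other. This gave 19 of the 31042 probe sets that are not controls, and they covered 9 of the 14217 genes named in this way. No probe set carried the symbol Tgfbr2 alone in the annotation used here. Of the 19 probe sets, 16 passed a filter on low values. The 3 that did not, a second one of Smad3, another one of Smad7 and a second one of Tgfbr1, lay between 2.99 and 4.65 on the log2 scale in every array.

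The cells came from female Wistar rats, and 24 arrays fell into 12 groups of 2 arrays, each array from a separate animal. Healthy rats (NOCIA, labelled NORA) were sampled before therapy, at 1 hour and at 34 days, and rats with collagen-induced arthritis (CIA, labelled RA), raised by bovine type II collagen in adjuvant, were sampled before therapy. At 1 hour and at 34 days 4 CIA arms were sampled: MS, which received mechanical stimulation through needles in the skin and is labelled AP, MTX, which received methotrexate, PLA, which received saline into the peritoneum, and ANE, which was put under isoflurane and not ether for blood sampling and had no therapy. All animals were shaved, and the 4 CIA arms share the 2 CIA baseline arrays, while no age was given in the labels.

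TGF-beta is secreted in a latent form, and once released it joins the receptors Tgfbr2 and Tgfbr1. The active Tgfbr1 kinase phosphorylates Smad2 and Smad3, which enter the nucleus with Smad4, whereas Smad1 mainly carries signals of bone morphogenetic proteins. Smad7 is itself induced by the pathway and blocks the receptor. Ccn2, a matricellular protein also called connective tissue growth factor, is a classical target in wound repair and fibrosis, and Zeb2 is a repressor that acts in epithelial-mesenchymal transition and in myeloid and cytotoxic lymphoid cells. In blood, platelets are a rich store of TGF-beta1.

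Ccn2 and Smad7 are the pathway's textbook response genes, and their promoter sequences are shown. They were the 2 of the 9 measured genes with a probe set called as higher in NOCIA at 34 days. Both run 5′ to 3′ from 250 bases before to 50 bases after the start of transcription, and are the RefSeq sequences of the rat build GRCr8. Capitals mark the SMAD-binding letters CAGAC and the letters GGAATG, which the TEAD factors bind, on either strand. The first is on the minus strand at chr1:22624565-22624864 and the second on the plus strand at chr18:71263258-71263557.
Ccn2: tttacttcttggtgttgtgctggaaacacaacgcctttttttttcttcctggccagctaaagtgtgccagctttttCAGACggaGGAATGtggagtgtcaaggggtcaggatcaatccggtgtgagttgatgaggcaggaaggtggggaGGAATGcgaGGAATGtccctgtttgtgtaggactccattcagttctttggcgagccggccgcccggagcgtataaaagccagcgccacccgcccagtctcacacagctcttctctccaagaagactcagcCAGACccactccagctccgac
Smad7: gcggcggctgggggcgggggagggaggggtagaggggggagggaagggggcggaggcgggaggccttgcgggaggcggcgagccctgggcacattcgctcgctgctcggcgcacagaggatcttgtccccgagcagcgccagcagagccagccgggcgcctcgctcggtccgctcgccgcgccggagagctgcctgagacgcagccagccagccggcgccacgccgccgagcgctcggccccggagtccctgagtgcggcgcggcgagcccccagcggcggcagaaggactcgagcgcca

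The Ccn2 window held CAGAC at positions -174 and 30 from the start and GGAATG at -166, -101 and -92, so that the first of each lie side by side. The Smad7 window held neither. It held the GC box letters GGGCGG at -239 and -203, and Ccn2 held them at -43 and -13. The measured genes matched 10 such windows, Smad2 with 2 starts. The 2 Smad2 windows overlap, and GGGCGG at -10 and 15 of one is the same sequence as at -245 and -221 of the other. The 10 windows are thus not all separate sequences. CAGAC occurred in 1 of the 10, against 50.1% of all 33469 promoters of the same length, GGAATG in 1 against 14.2%, and GGGCGG in 7 against 33.1%. The palindrome GTCTAGAC occurred in none of the 10 and in 0.197% of all. No other motifs were searched. GTCTAGAC shares the letters AGAC with the first motif but does not hold it, and a window without a motif says nothing of sites elsewhere. The GC content was 54% for Ccn2 and 77.7% for Smad7, against a median of 51.7% over all promoters.

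Across the series, arrays of a group differed by an SD of 0.23 (NOCIA baseline) to 0.88 (MS at 1 hour) on the log2 scale, over all probe sets. The tests below use 1 error per probe set, shared by all 12 groups. For a group of wide spread, such as MS at 34 days (0.84, against 0.29 at the CIA baseline), this error and its p can be too small. The 4 arrays MS at 1 hour replicate 1, ANE at 1 hour replicate 1, PLA at 1 hour replicate 2 and MS at 34 days replicate 1 were picked as standing apart. No numeric rule was stated for this choice, and in a group of 2 the spread cannot tell which array is the odd one. Marker genes of T cells, B cells, natural killer cells and monocytes were measured in 10 of 11, 6 of 8, 8 of 8 and 9 of 10 cases, and platelet genes in 14 of 18, the platelet chemokine Pf4 at 14.22 to 14.71 in every array. In such mixed cells, fewer cells of a type and less RNA per cell cannot be told apart. The number of arrays limits the precision, and an exact test of 2 against 2 arrays cannot give a p below 0.333.

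**Figure D1:**
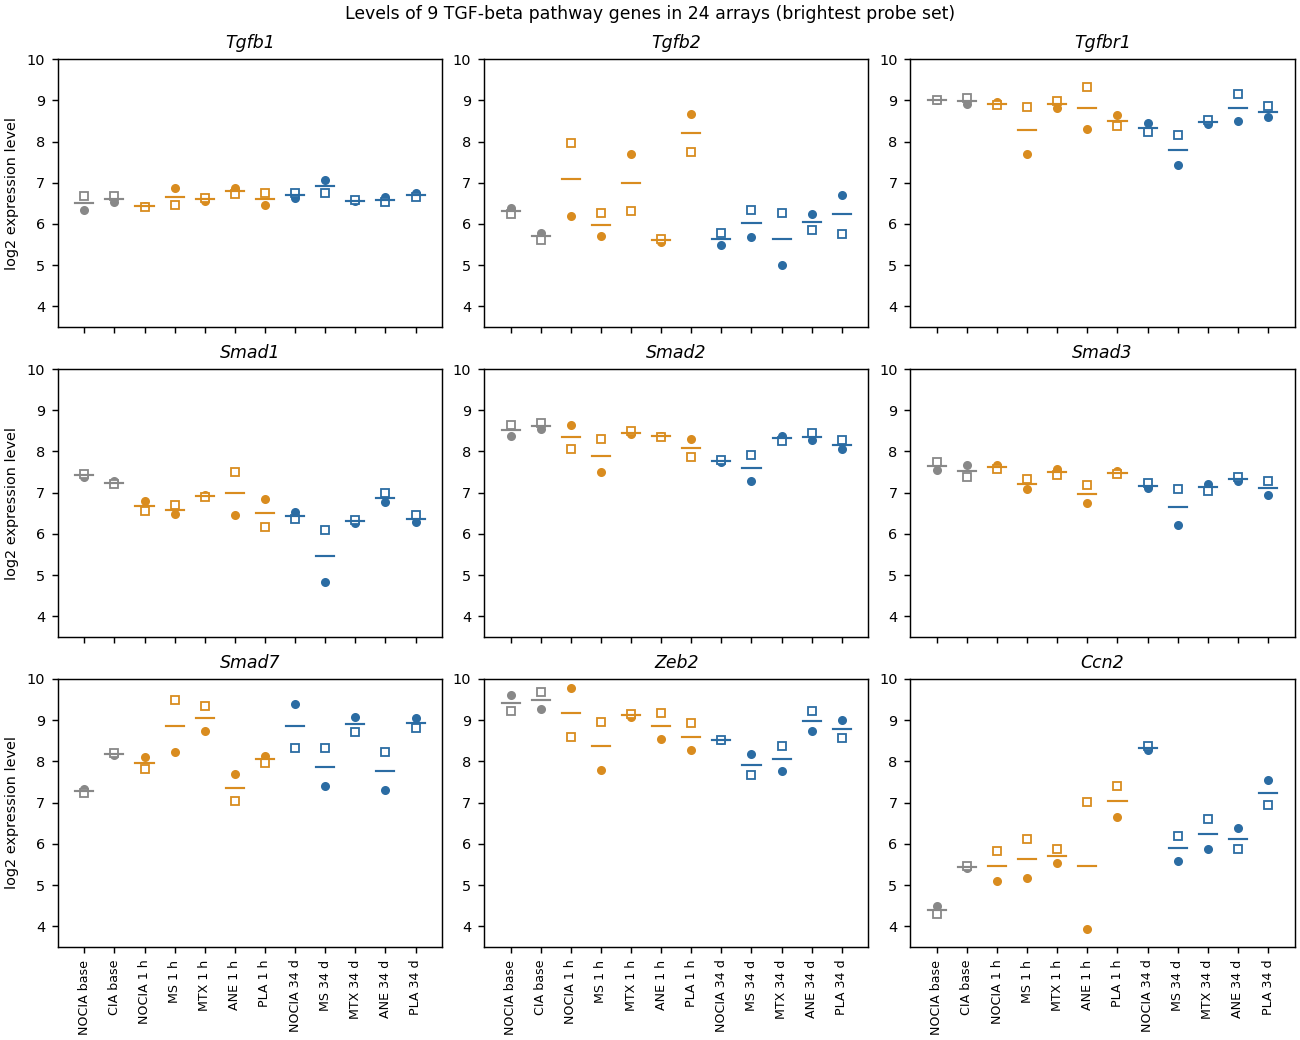
Log2 expression level of the brightest probe set of each of 9 genes (vertical axis) in the 12 groups (horizontal axis), with a filled circle for replicate 1, an open square for replicate 2 and a line at their mean. Ccn2 climbs from 4.29 and 4.50 at the NOCIA baseline to 8.29 and 8.36 in NOCIA at 34 days, while Tgfb1 stays between 6.35 and 7.07 in all 24 arrays.

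In the healthy rats, Ccn2 and 1 probe set of Smad7 rose and 1 probe set of Zeb2 fell between baseline and 34 days. In the MS arm Smad2, Smad3 and 1 probe set each of Smad1 and Zeb2 fell, and 1 probe set of Tgfb2 rose. In all, 3 of 16 probe sets passed limma's test at an adjusted p of 0.05 in NOCIA at 34 days, against 12% of all 20690 probe sets tested. In MS at 34 days against the CIA baseline the count was 5 of 16, against 6.96%. The median of the 16 was -0.37 in NOCIA and -0.26 in MS, beside -0.02 and -0.16 over all probe sets. The MS median over all probe sets depended on the setting. It was -0.05 after quantile normalization, 0.06 with no filter, -0.33 with a stricter filter and -0.04 without MS replicate 1.

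The ligand Tgfb1, the main TGF-beta of blood and immune cells, had 1 probe set, and its level was nearly flat. It lay between 6.35 (NOCIA baseline) and 7.07 (MS at 34 days) in the 24 arrays. The 2 MS arrays at 34 days were at 7.07 and 6.76, above the CIA baseline arrays at 6.55 and 6.67, and the difference of 0.31 ± 0.18 (SE, n = 2 against 2) did not pass the limma test (adjusted p = 0.21). The 95% interval of that difference ran from -0.07 to 0.69. Arrays of these 2 groups did not overlap for 63.7% of all probe sets.

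Tgfb2, a ligand of the same receptors, was read by 2 probe sets that correlated at 0.561 over the 24 arrays. The brighter (1387172_a_at) was at 5.79 and 5.61 at the CIA baseline and at 8.67 and 7.74 in PLA at 1 hour, the highest group. It was at 7.69 and 6.31 in MTX at 1 hour, at 6.19 and 7.97 in NOCIA at 1 hour, and at 5.56 and 5.65 in ANE at 1 hour. In MTX and NOCIA at 1 hour the replicates lay far apart, and 1 of them in each group was close to the NOCIA baseline (6.39 and 6.25). PLA at 1 hour exceeded the CIA baseline by 2.50 ± 0.56 in the brighter and 1.28 ± 0.29 in the other probe set (1388011_a_at), without passing the adjusted threshold in limma (adjusted p = 0.29 for both). PLA replicate 2 at 1 hour is among the arrays picked as standing apart.
The dimmer Tgfb2 probe set rose in MS at 34 days, by 1.03 ± 0.29 from the CIA baseline (limma, adjusted p = 0.047). Its levels were 4.68 and 5.11 at the CIA baseline and 6.46 and 5.40 in MS at 34 days. The baseline levels were close to the 4.83 to 5.06 that marks the filter, so the rise starts near the filter level. The groups did not overlap, as for 63.7% of all probe sets, and most of the difference came from replicate 1. Without that array the difference was 0.50 ± 0.27. The brighter probe set gave 0.31 ± 0.56 (adjusted p = 0.69).

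Tgfbr1, the type I receptor kinase, was at 8.90 and 9.06 at the CIA baseline, at 7.42 and 8.16 in MS at 34 days and at 7.69 and 8.84 in MS at 1 hour. The MS difference at 34 days was -1.19 ± 0.36, just outside the threshold (limma, adjusted p = 0.054). NOCIA at 34 days was at 8.44 and 8.22 against 9.02 and 9.0 at its baseline, a difference of -0.68 ± 0.36 (adjusted p = 0.28). In both comparisons all arrays at 34 days lay below all at baseline. Such groups did not overlap for 63.7% of all probe sets in MS and 65.9% in NOCIA.

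The receptor-activated SMADs were lower in MS at 34 days. Smad1 (brighter probe set, 1389373_at) was at 7.28 and 7.20 at the CIA baseline and at 4.82 and 6.11 in MS at 34 days, and it fell by 1.78 ± 0.35 (limma, adjusted p = 0.026), a 3.43-fold change. The second Smad1 probe set (1369174_at) differed by -0.10 ± 0.17 and correlated with the first at only 0.149 over the arrays. Smad1 was lowest of all groups in MS at 34 days, 0.84 below the next group, MTX at 34 days. This is the only gap between neighbouring groups, among the brightest probe sets of the 9 genes, that was wider than the 95% margin of a difference. That margin, 0.75 for Smad1, is for 1 pair chosen beforehand and uses the error shared by all groups. A gap picked from many exceeds it more readily. The test of this pair, MS against MTX at 34 days, did not pass (limma, adjusted p = 0.33). Without MS replicate 1 the difference was -0.20.

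Smad2, which carries the TGF-beta signal with Smad3, was at 8.54 and 8.69 at the CIA baseline and at 7.30 and 7.92 in MS at 34 days. It fell by 1.01 ± 0.27 (limma, adjusted p = 0.043). Smad3 was at 7.67 and 7.38 at the CIA baseline and at 6.23 and 7.10 in MS, and fell by 0.86 ± 0.24 (limma, adjusted p = 0.047). For all 3 genes both MS arrays lay below both CIA baseline arrays, and replicate 1 was the lower in each case. Of all probe sets, 63.7% did not overlap in this comparison.
Without MS replicate 1 at 34 days the differences were -1.14 ± 0.33 for Smad1, -0.70 ± 0.30 for Smad2 and -0.42 ± 0.22 for Smad3, and 0 of 16 probe sets passed. The count was also 0 without either CIA baseline array, and 6 without MS replicate 2. In NOCIA at 34 days the same genes differed from baseline by -0.97, -0.74 and -0.47, none past the threshold (adjusted p of 0.088, 0.088 and 0.25).

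In the other CIA arms at 34 days the Smad1 difference from the CIA baseline was -0.94 in MTX, -0.87 in PLA and -0.36 in ANE, none of which passed. These arms use the same baseline arrays as MS. Set against PLA at 34 days, MS differed by -0.91 ± 0.35 for Smad1 and by -0.94 ± 0.36 for Tgfbr1 (adjusted p = 0.18 for both). Without MS replicate 1 these differences were -0.27 and -0.57.

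**Figure D2:**
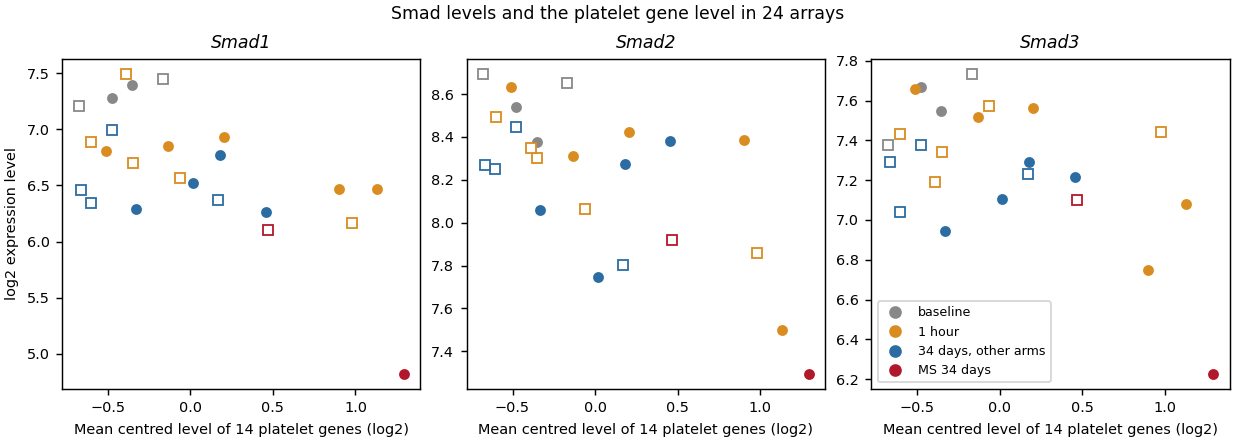
Log2 level of Smad1, Smad2 and Smad3 (vertical axes) against the mean centred level of 14 platelet genes (horizontal axis, log2) in the 24 arrays, with filled circles for replicate 1 and open squares for replicate 2. The MS array at 34 days with the highest platelet level, 1.30, has the lowest Smad1, Smad2 and Smad3.

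Marker genes of several cell types moved with the MS group at 34 days. All 14 platelet genes were above 0 in the difference from the CIA baseline, with a median of 1.49, although none passed the test. The mean centred platelet level was 1.30 and 0.47 in the MS arrays and -0.48 and -0.68 at the CIA baseline. T cell genes had a median difference of -1.29, B cell genes -1.51, natural killer and cytotoxic genes -1.64 and monocyte genes -0.73. Past the test, 3 of 10 T cell, 5 of 6 B cell, 1 of 8 natural killer and 0 of 9 monocyte genes were lower. The centred T cell level was -1.66 and -0.21 in MS against 0.495 and 0.547 at the CIA baseline. The part of these shifts in the lower Smad levels was not tested.

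Smad7, the inhibitory SMAD, was read best by 1368896_at, at 7.32 and 7.23 at the NOCIA baseline, at 8.10 and 7.81 in NOCIA at 1 hour and at 9.40 and 8.32 in NOCIA at 34 days. It rose by 1.59 ± 0.44 at 34 days, 3.0-fold (limma, adjusted p = 0.028). All NOCIA arrays at 34 days lay above the baseline, replicate 1 by far the most. Of all probe sets, 65.9% did not overlap there. The call was lost without NOCIA replicate 1 at 34 days (1.05 ± 0.51), and without either baseline array, where the difference hardly moved (1.63 and 1.54). The dimmer probe set (1368898_at) gave 0.48 ± 0.23 (adjusted p = 0.21).
The CIA baseline was at 8.15 and 8.21, above the NOCIA baseline by 0.90, which did not pass. Both MTX groups (8.74 and 9.35 at 1 hour, 9.08 and 8.71 at 34 days), PLA at 34 days (9.05 and 8.81) and MS at 1 hour (8.23 and 9.5) lay above the CIA baseline arrays, while ANE at 1 hour (7.69 and 7.03) lay below them. In those comparisons 32.4% (MS at 1 hour) to 55.8% (PLA at 34 days) of all probe sets did not overlap. In MS at 34 days Smad7 was at 7.41 and 8.33, -0.31 ± 0.44 from the CIA baseline, and 0.15 without replicate 1. Ordered by group mean, no neighbouring groups differed by more than 0.68, within the 95% margin of a difference of 0.94.

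Ccn2 showed the widest range of the 9 genes. It was at 4.50 and 4.29 at the NOCIA baseline, at 5.11 and 5.83 in NOCIA at 1 hour and at 8.29 and 8.36 in NOCIA at 34 days. It rose by 3.93 ± 0.66 at 34 days, 15.2-fold (limma, adjusted p = 0.0017). The baseline arrays lay below the level of 4.83 to 5.06 that marks the filter, so this fold starts from a level below the filter. The call held without each of the 4 arrays in turn (adjusted p of 0.016 to 0.025).

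In the CIA rats Ccn2 started at 5.42 and 5.45, 1.04 above the NOCIA baseline (limma, adjusted p = 1.0). At 34 days it was at 5.59 and 6.20 in MS, 5.88 and 6.60 in MTX, 6.39 and 5.87 in ANE and 7.54 and 6.93 in PLA. PLA was the highest of these arms, and its difference from the CIA baseline, 1.80, did not pass. At 1 hour PLA was at 6.65 and 7.41, while the ANE arrays lay far apart, at 3.93 and 7.02. Replicate 1 of ANE is among the arrays picked as standing apart.
Taken as a difference from the change in NOCIA, the change of Ccn2 over 34 days was -3.47 ± 0.94 in MS, -3.12 ± 0.94 in MTX, -3.24 ± 0.94 in ANE and -2.13 ± 0.94 in PLA. None of these differences passed limma's adjusted threshold (adjusted p = 0.11, 0.38, 0.075 and 0.46), and the 4 share the NOCIA arrays. In the order of group means, no neighbouring groups differed by more than 1.09, within the 95% margin of 1.41.

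In NOCIA at 34 days B cell marker genes had a median difference of -1.83 from baseline, with 6 of 6 lower past the test. Natural killer genes had -1.75 (2 of 8 lower past the test), platelet genes 0.40 (12 of 14 above 0) and neutrophil genes 0.90 (6 of 7 above 0). T cell genes had -0.42 (1 of 10 lower past the test). Erythroid (red cell) genes had -0.82 (1 of 6 above 0) and monocyte genes -0.23 (3 of 9 above 0). The centred B cell level was 0.99 and 0.96 at baseline and -0.93 and -0.81 at 34 days. The part of these shifts in the Ccn2 and Smad7 differences was not tested.

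Zeb2, the repressor, was read by 5 probe sets, of which 3 moved alike and the other 2 did not move with them. The brightest (1380699_at) was at 9.28 and 9.68 at the CIA baseline and at 8.17 and 7.67 in MS at 34 days, and it fell by 1.56 ± 0.42 (limma, adjusted p = 0.044). The fourth (1382252_at) was at 7.67 and 7.35 at the NOCIA baseline and at 5.84 and 5.78 in NOCIA at 34 days, and it fell by 1.70 ± 0.37 (limma, adjusted p = 0.0073). The groups did not overlap in either case, as for 63.7% of all probe sets in MS and 65.9% in NOCIA. The NOCIA call was lost without baseline replicate 1 (-1.54) and without replicate 1 at 34 days (-1.73), and the MS call without MS replicate 1 (-1.82) and without either CIA baseline array (-1.76 and -1.36). The differences thus kept their direction and much of their size in these cases. By group mean, both probe sets were also below the CIA baseline in the other CIA arms at 34 days. The difference of 1380699_at was -1.41 in MTX, -0.71 in PLA and -0.51 in ANE. For 1382252_at it was -1.12, -0.87 and -0.46. None passed the limma test (lowest adjusted p = 0.63). MS against MTX at 34 days gave -0.15 for 1380699_at and 0.60 for 1382252_at (limma, adjusted p = 0.83 and 0.35).

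The probe sets called in the 2 comparisons differ. In NOCIA the brightest gave -0.89 (adjusted p = 0.20) and in MS the fourth gave -0.52 (adjusted p = 0.29). The second (1393795_at) gave -1.62 in NOCIA (adjusted p = 0.054) and -0.78 in MS. The third (1395130_at) ran the other way, 0.85 in NOCIA and 1.00 in MS, neither past the threshold. Over the 24 arrays the brightest, the second and the fourth correlated at 0.614 to 0.771 with each other, and all 3 were below 0 in both comparisons. The third correlated with them at -0.307 to 0.0648, and the fifth, the dimmest, at 0.0524 to 0.238. The fifth lay between 4.57 and 5.25 in all arrays, around the level of 4.83 to 5.06 that marks the filter. It can thus tell little of a direction. The direction of Zeb2 thus depends on the probe set, and which transcripts each one reads was not tested.

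**Figure D3:**
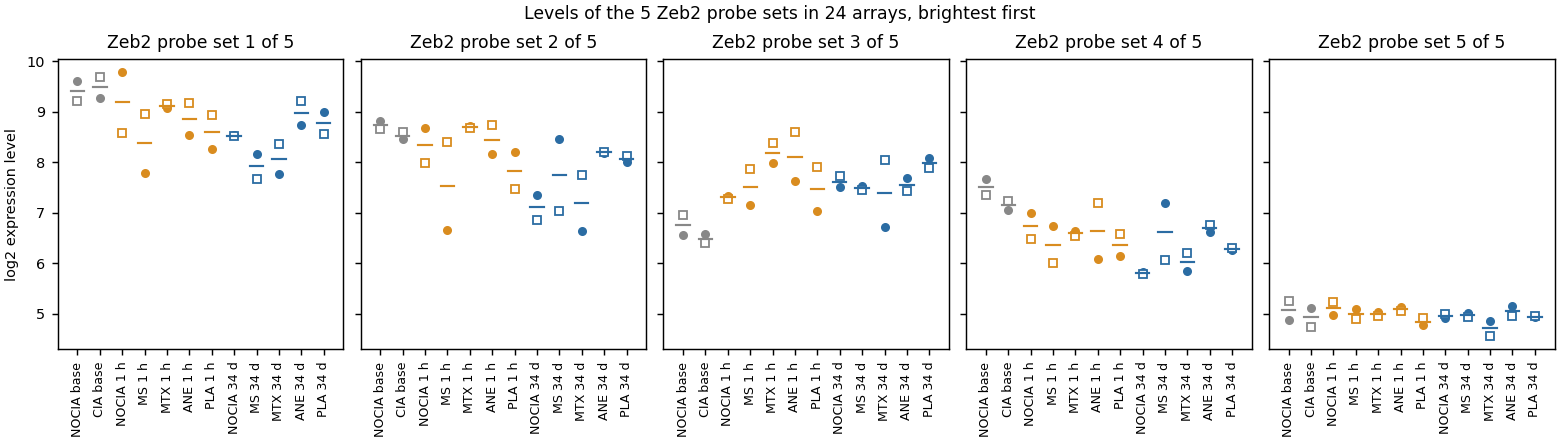
Log2 level (vertical axis) of the 5 Zeb2 probe sets, brightest first, in the 12 groups (horizontal axis), with a filled circle for replicate 1, an open square for replicate 2 and a line at their mean. By group mean, the fourth lies highest at the 2 baselines, whereas the third lies lowest there.

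**Figure D4:**
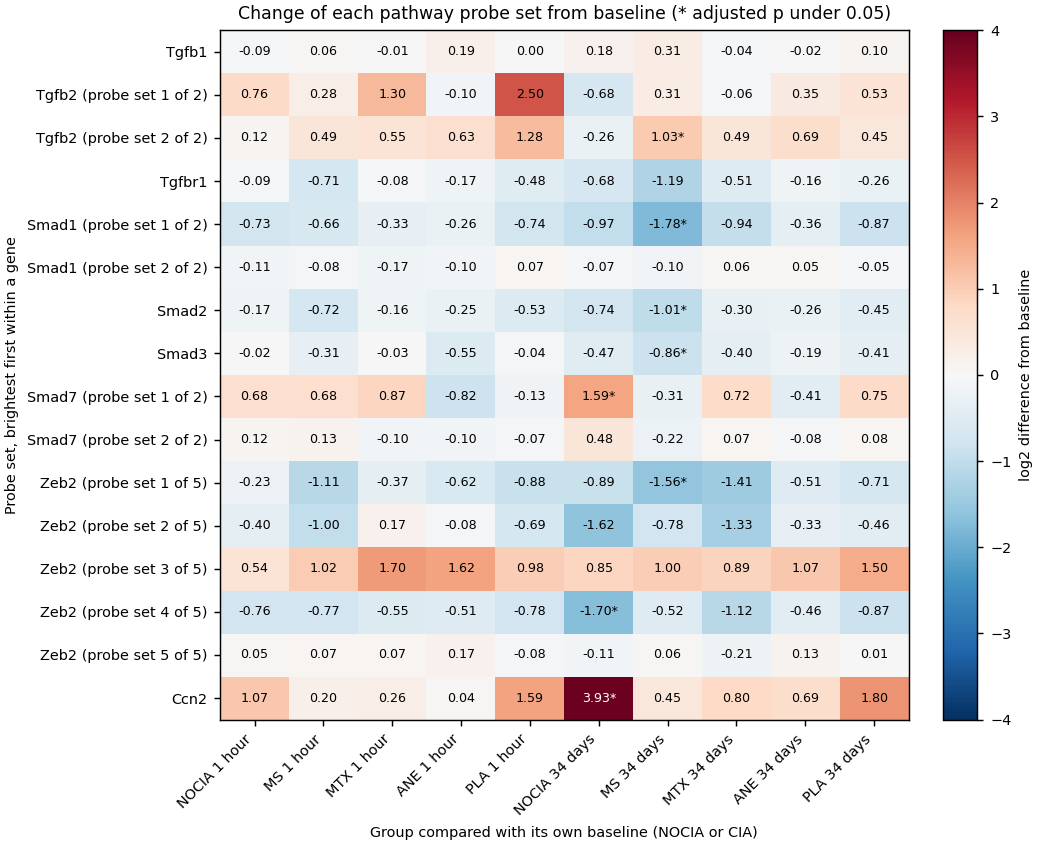
Log2 difference from the group's own baseline (colour and number) for the 16 probe sets (rows) in 10 comparisons (columns), with an asterisk for an adjusted p under 0.05. The 8 asterisks are in the columns of NOCIA and MS at 34 days, and Ccn2 in NOCIA has the darkest cell, 3.93.

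None of the 16 probe sets passed the adjusted threshold in the remaining comparisons. Before therapy, CIA against NOCIA gave 0 of 16, with 0.00483% of all probe sets called. At an unadjusted p under 0.05 in limma there were 0 of the 16 and 789 of all 20690 probe sets. At 1 hour the counts were 0 in every arm. Brackets here give the share of all called, then the members and all probe sets at that unadjusted level. They were NOCIA (0.00483%, 0 members, 739 of all), MS (0.00967%, 3 members, 1718 of all) and MTX (0.0145%, 2 members, 257 of all). ANE had (0.0338%, 3 members, 2239 of all) and PLA (0%, 5 members, 1425 of all). At 34 days the counts were 0 in MTX (0%, 5 members, 1211 of all), in ANE (0%, 2 members, 306 of all) and in PLA (0%, 4 members, 1003 of all).
Between arms at 34 days 0 of 16 passed, with the same order in brackets. This held for MS against PLA (0%, 3 members, 4795 of all), MTX against PLA (0%, 0 members, 153 of all) and MS against MTX (0%, 3 members, 2980 of all). The differences of the 34-day change from that of NOCIA gave 0 for MS (0.0338%, 5 members, 4108 of all) and MTX (0.0242%, 1 member, 1552 of all). They also gave 0 for ANE (2.86%, 4 members, 3277 of all) and PLA (0.00967%, 1 member, 2027 of all). All arms at 34 days against all at 1 hour gave 0 (0.101%, 5 members, 2621 of all).

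The p and fold limits of the study's methods, an unadjusted p under 0.05 with more than a 2-fold change, were also applied to the deposited values. The study itself used MAS5 values and removed probe sets by their detection calls, which was not done here. Of the 16, these limits passed as many as the adjusted threshold in MS at 34 days and more in NOCIA at 34 days. Over all probe sets in NOCIA at 34 days they passed fewer, 9.91% against 12%. In MS at 34 days 1 probe set was higher and 4 were lower (13.9% of all called), in NOCIA at 34 days 2 and 2 (9.91%), in MTX at 34 days 0 and 3 (0.826%), in ANE at 34 days 1 and 0 (0.271%) and in PLA at 34 days 2 and 0 (0.614%). At 1 hour it was 1 higher and 1 lower in MS (1.99%), 2 and 0 in MTX (0.406%), 1 and 0 in ANE (2.46%), 3 and 0 in PLA (1.37%) and 0 in NOCIA (0.701%). CIA against NOCIA before therapy gave 0 (0.739%).

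**Figure D5:**
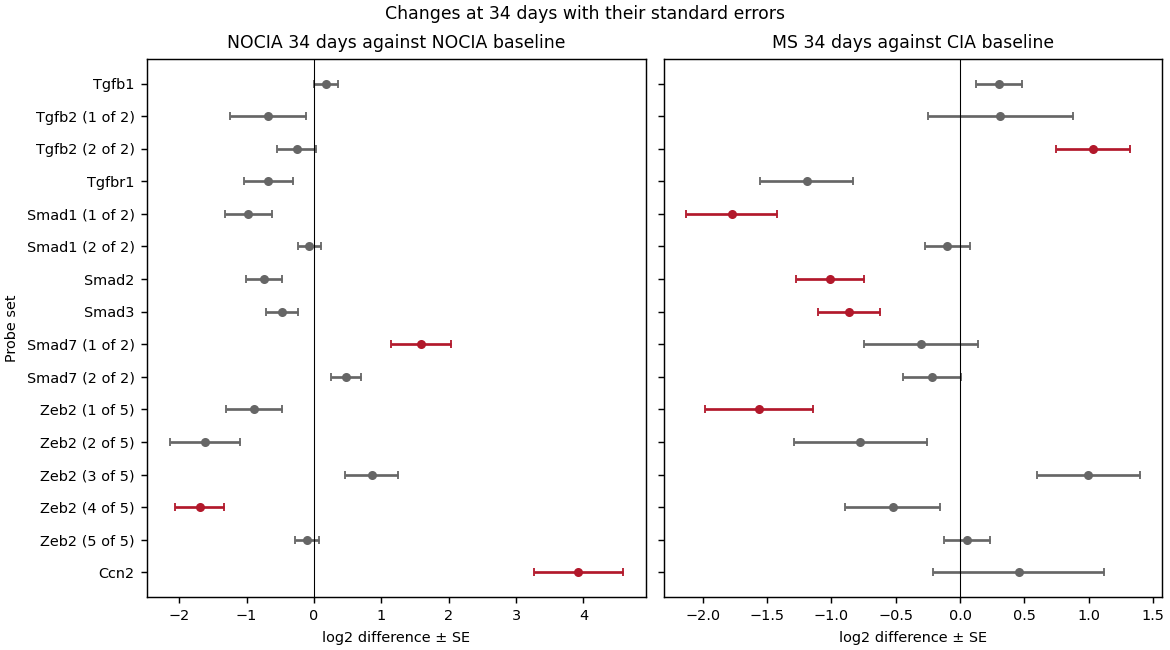
Log2 difference from baseline (horizontal axis, point) with its standard error (bar) for the 16 probe sets (vertical axis) in NOCIA and in MS at 34 days, in red where the adjusted p is under 0.05. Ccn2 is at 3.93 in NOCIA and at 0.45 in MS.

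Separation of single arrays was common in these small groups. In NOCIA at 34 days 12 of 16 probe sets did not overlap with the baseline (4 higher and 8 lower), against 65.9% of all probe sets, and in MS at 34 days 11 of 16 (4 higher and 7 lower), against 63.7%. The 10 arrays of all arms at 1 hour were also set against the 4 baseline arrays. No member passed the test, beside 0.261% of all probe sets. At an unadjusted p under 0.05 in limma there were 7 members, beside 2465 of all 20690 probe sets. Only 1 member did not overlap, beside 0.672% of all. This was the third Zeb2 probe set, which lay between 7.05 and 8.61 at 1 hour and between 6.40 and 6.96 at the baselines. The difference was 1.09 (limma, adjusted p = 0.069).

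Around these genes, a list of 74 other genes of the pathway was read, of which 53 had a probe set above the filter, 12 were below it and 9 had none under their symbol. In NOCIA at 34 days 4 of the 53 rose and 2 fell, with the brightest probe set for each gene. This is a share close to the 12% of all probe sets called. The 6 genes belong to the 14 measured negative regulators, and nothing particular to that list was tested. Skil, a corepressor of SMADs, rose by 1.36 ± 0.33, Tgif2, another SMAD corepressor, by 1.33 ± 0.39, the ubiquitin ligase Smurf1 by 1.16 ± 0.24, and the receptor-binding Strap by 1.10 ± 0.33. Smurf2, a ligase that targets receptors and SMADs, fell by 0.72 ± 0.16. Fkbp1a, which binds the resting type I receptor, fell by 1.75 ± 0.26. The adjusted p values were between 0.00087 and 0.042 in limma. The median over the 53 genes was 0.04, beside -0.02 over all probe sets.

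Among the ligands (8 measured), receptors (6), SMADs and their partners (8), latency and activation genes (6) and targets (11), no gene passed in NOCIA at 34 days. In MS at 34 days 0 of the 53 rose and 1 fell, beside 6.96% of all probe sets called. The 1 was Smurf2, which fell by 0.56 ± 0.16 (limma, adjusted p = 0.049). The median over the 53 was -0.32, beside -0.16 over all probe sets. The 6 latency and activation genes were all above 0 in MS, with a median of 0.40, and the highest was Ltbp1, named after its value was seen, a binder of latent TGF-beta, with a difference of 2.10 ± 0.94 (adjusted p = 0.12). Ltbp1 was at 7.73 and 6.93 at the CIA baseline and at 10.54 and 8.31 in MS at 34 days, so replicate 1 carried most of it. Ltbp1 was also high in the 3 other arrays that stood apart, at 10.25 in MS, 9.48 in ANE and 9.47 in PLA at 1 hour, where the centred platelet level was 1.13, 0.90 and 0.98. The part of platelets in this was not tested. In the other arms, at 1 hour or at 34 days against their baselines, 0 of the 53 passed. Smad4, the shared partner of Smad2 and Smad3, differed by -0.77 ± 0.36 in MS (adjusted p = 0.13) and -0.01 ± 0.36 in NOCIA.

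For each gene the most similar named gene was taken by Pearson's correlation over the 12 group means. Ccn2 lay closest to Rbm47 (0.942) and Fosl2 (0.931), Smad7 to Sh2d2a (0.947), Smad1 to Fasn (0.972), Smad2 to Traf3ip3 (0.975), Smad3 to Morc2 (0.958) and Zeb2 to Togaram1 (0.954). Tgfbr1 lay closest to Il10rb (0.983), a chain of the interleukin-10 receptor, and Tgfb2 to C6 (0.967) and to the growth factor Bmp2 (0.955). For the flat Tgfb1 the closest, Tmem237, reached 0.944 over the group means but only 0.352 over the 24 arrays. The points share the arrays and their cell makeup, and each was picked as the highest of many, so these values are descriptions.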

How the data were processed

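The authors deposited log2 expression levels of rat blood mononuclear cells on Affymetrix rat genome arrays. Per the labels RMA and affy were used, with no version given, whereas the methods text names MAS5. Single values reached from 2.18 to 15.02 and the medians of arrays lay at 5.49 to 5.58, and no further scaling was applied.

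All columns matched a sample. Groups were taken from the labels. Of 31099 probe sets, the annotation paired 20832 with a single symbol, 436 with several and left 9831 unnamed. Those above the 40th percentile of their array in at least 2 arrays were kept (20690). limma 3.58.1 in R 4.3.3 was fitted to all 24 arrays with 1 coefficient per group (12 residual degrees of freedom), and p-values were adjusted by Benjamini-Hochberg over all kept probe sets in each of 20 comparisons. The procedure was also run on simulated data in which all arrays shared 1 spread per probe set. That run cannot speak to groups of unequal spread, such as those here. The error after ± is the standard error of the fit, which pools the spread of all groups and does not measure that of the groups compared.

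The members and gene lists were chosen with earlier results of these data known. Every member was described. Other genes were named if called, or as the closest over group means. Alternatives were no filter and a stricter one, quantile normalization, array weights, limma-trend, a replicate block, only the groups compared, other probe sets and leaving out arrays. Python 3.11.15 made the tables. Promoters came from RefSeq (GRCr8).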

Additional observations from a re-analysis of the deposited data

Results flagged for a closer look

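Fkbp1a, which binds the resting type I TGF-beta receptor, changed differently over 34 days in ANE and in NOCIA. The difference of the changes was 1.80 ± 0.37 on the log2 scale (limma, adjusted p = 0.021), from 0.05 ± 0.26 in ANE and -1.75 ± 0.26 in NOCIA. The corresponding differences from NOCIA were 1.42 in MS, 1.2 in MTX and 1.38 in PLA, none past the threshold (adjusted p = 0.11, 0.41 and 0.19), and all 4 arms share the NOCIA arrays, where Fkbp1a fell. In the ANE comparison 1 of the 53 measured pathway genes passed, against 2.86% of all probe sets, and 4 of 6 B cell marker genes were higher past the test, with a list median of 2.25. The part of that shift in the Fkbp1a difference was not tested. Among the 9 genes of the report none passed. Groups of 2 arrays are too small for a test of single outlying arrays.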

How the results depend on the processing

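The 3 probe sets called in NOCIA at 34 days became 5 after quantile normalization, 11 with array weights, 9 without the 4 arrays that stood apart and 12 with only the groups compared, and 1 to 3 when 1 array was left out in turn. The 5 called in MS at 34 days became 3 without a filter, 3 after quantile normalization, 0 with array weights, 2 without the 4 arrays and 0 with only the groups compared, and 0 to 6 with 1 array left out. Over all probe sets that MS count was 1439, and it was 0 without either CIA baseline array or without MS replicate 1 at 34 days, and 9955 without MS replicate 2, where the lone array was assumed to vary like the other groups. In NOCIA at 34 days the count over all was 2478, and 638 to 1258 with 1 array left out.

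Elsewhere the count was 0 and moved as follows. Without the 4 arrays it was 1 for NOCIA at 1 hour, 2 for ANE at 1 hour, 1 for MTX and 2 for PLA at 34 days, 1 for each of the MS, MTX and PLA changes against NOCIA and 5 for ANE, 4 for all arms at 1 hour and 5 for 34 days against 1 hour. With array weights it was 1 for MTX at 1 hour, 4 for MTX and 5 for PLA at 34 days, 1, 5 and 3 for the MTX, ANE and PLA changes against NOCIA and 3 for all arms at 1 hour. With only the groups compared it was 2 for CIA against NOCIA, 1 for MTX at 1 hour, 2 for PLA at 34 days, and 1, 1, 7 and 3 for the MS, MTX, ANE and PLA changes against NOCIA. Quantile normalization gave 1 for all arms at 1 hour. With 1 array left out the count was 0 to 4 for MS at 1 hour (4 without replicate 2), 0 to 1 for ANE at 1 hour, 0 to 6 for MS against PLA, MS against MTX and the MS change against NOCIA (6 without MS replicate 2), 0 to 2 for all arms at 1 hour and 0 to 1 for 34 days against 1 hour. The cause of these moves was not tested.

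The direction turned for Zeb2 with another probe set, run only for called values. This gave 0.85 in NOCIA at 34 days, and 1.00 and 0.0555 in MS at 34 days, where the called ones fell. The 0.0555 ± 0.18 came from the fifth probe set, which lay around the filter level. Direction also turned for Smad7 in MS at 34 days, at 0.15 without the 4 arrays. With 1 array left out Smad7 ran from -0.76 to 0.15 (0.15 without MS replicate 1). Of 486 values with 1 array left out 444 kept direction and side of the threshold, and of 594 under other alternatives 498. Most of these values were not called in the main fit, and one that stayed uncalled counts as kept. Of the called values, only Ccn2 in NOCIA at 34 days kept its call without each array in turn.

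Replicate numbers were not used as pairs in the main fit. Differences between replicates correlated at -0.756 to 0.805 (median -0.006) over 66 pairs of groups, and 25 of these lay over 0.1. An effect shared by replicates of some groups was not tested. With a replicate block the members called were 3 in NOCIA and 6 in MS at 34 days, and the counts over all probe sets 2482 and 1955.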
